A study of Mus musculus with 16 samples.

Results

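Pomt1, Pomt2, Pomgnt1 and Gmppb, 4 genes of the route that places O-linked mannose on dystroglycan, were followed by symbol through every array of a mouse study of Galgt2 overexpression. All 4 were found, on 5 of 45101 probe sets, and they make up 4 of the 18194 genes tested. Galgt2 (official symbol B4galnt2) encodes a glycosyltransferase that adds a terminal N-acetylgalactosamine to glycans. The muscle was gastrocnemius of male mice aged 2 months. The groups were Galgt2 transgenic mdx mice (C57BL/10J x C57BL/6J), Galgt2 transgenic mice (C57BL/6J), mdx mice (C57BL/10J) and wild-type mice (C57BL/6J), with 2 arrays each in one array set. A further set held mdx muscle (C57BL/10J) injected with AAV-Galgt2 and the contralateral mdx muscle injected with PBS, 2 arrays each. A last set held C2C12 cells, a mouse myoblast line that fuses into myotubes, and C2C12 cells carrying a stable Galgt2 transfection, each as myoblasts and myotubes with 1 array per condition. The mdx mouse lacks full-length dystrophin. Strain background differs between mdx, transgenic mdx and wild type, so it cannot be told apart from genotype in those comparisons. The labels name neither the promoter of the transgene nor the number of clones behind the transfected line, and they leave unsaid whether replicates are separate animals and how the 2 legs of a mouse pair up in the injected set. P-values therefore measure the spread between these samples, which may be technical.

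Dystroglycan is the laminin receptor of the muscle fibre surface, and its alpha subunit binds laminin only through a long glycan built on O-mannose. Gmppb makes GDP-mannose, the activated sugar from which the dolichol-linked mannose donor is formed. Pomt1 and Pomt2 act together in the endoplasmic reticulum as the enzyme that transfers mannose to serine and threonine. Pomgnt1 then extends the mannose with N-acetylglucosamine in the Golgi. Loss of any of these enzymes in humans causes muscular dystrophies grouped as dystroglycanopathies. The comparisons below ask whether the message for these enzymes differs with dystrophin loss or with added Galgt2.

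The deposited values are linear intensities per probe set. Array medians ran from 57.69 to 63.95 in the transgenic and wild-type set, from 25.35 to 25.71 in the injected set and from 57.18 to 60.37 in the cell line set, so levels were compared within a set. Intensities of different genes are not read as relative amounts of message, since probe sets differ in how brightly they hybridise. Percentiles only place the signal of a probe set among all probe sets, and marker sums weigh bright probe sets most. The labels were checked first on the genes they name. B4galnt2 was 8.47 ± 0.91 log2 higher in transgenic than wild-type muscle (SE, adjusted p = 0.000475), and Dmd, which encodes dystrophin, was 2.82 ± 0.20 lower in mdx than wild type on the same scale (log2 difference -2.82, adjusted p = 0.000475). In AAV-Galgt2 against PBS 0 of 18194 genes were called, so B4galnt2 was not called there. Log2 differences of up to 5.78 went uncalled in that comparison. The lack of a call thus does not say whether the vector raised B4galnt2. Replicate 2 of transgenic mdx stood apart in the ratio of 3′ to 5′ control probe sets, with a log2 ratio of 1.23 for Gapdh against 0.18 to 0.48 in the other arrays of its set. Muscle is a mixed tissue, and in such bulk RNA fewer cells of a type and less message per cell cannot be told apart.

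None of the 4 genes passed the test in any of 7 muscle comparisons. Of the 28 tests, 0 had an adjusted p under 0.05 in limma (Benjamini-Hochberg over 18194 genes) and 3 had an unadjusted p under 0.05. Those 3 were all Gmppb, higher in mdx, in transgenic and in transgenic mdx muscle, and all were measured against the same 2 wild-type arrays. For Pomt1, Pomt2 and Pomgnt1 the largest difference was 0.45 on the log2 scale and the smallest unadjusted p was 0.101. Over all genes, 5.44% were called in mdx against wild type, 3.15% in transgenic against wild type, 6.08% in transgenic mdx against mdx and 7.28% in transgenic mdx against wild type. Calls were few in transgenic mdx against transgenic (0.055%), in the interaction of transgene and mdx (0.044%) and in AAV-Galgt2 against PBS (0%, with 1506 genes at an unadjusted p under 0.05, and 158 genes called when PBS replicate 2 was left out). The 95% confidence intervals limit what the arrays can say: 25 of the 28 include 0, and 17 lie wholly within a 2-fold change in either direction.

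**Figure D1:**
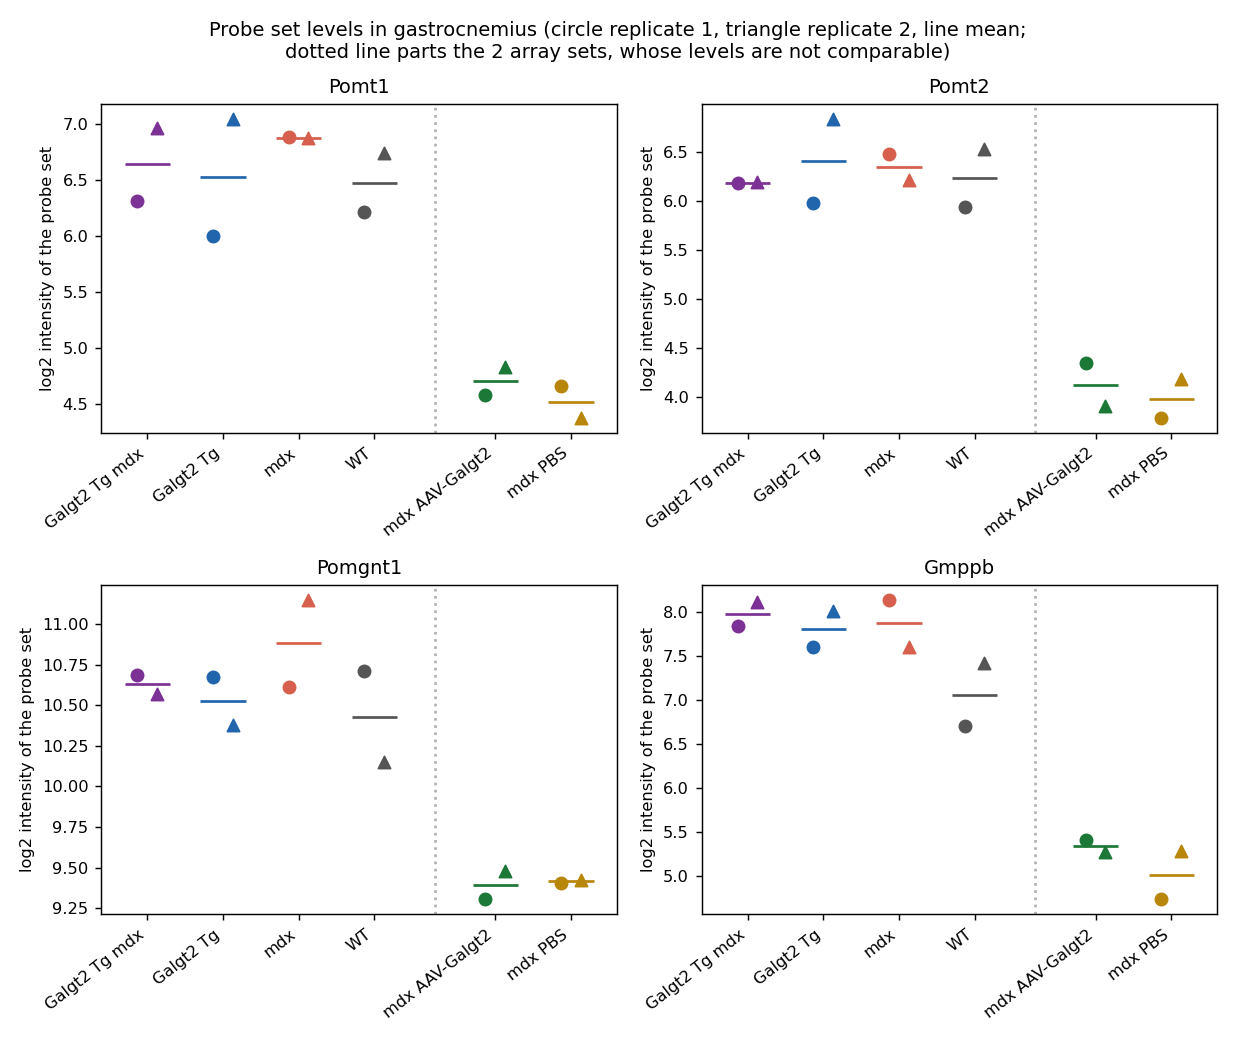
Log2 intensity of the 4 genes on each muscle array (circles, replicate 1; triangles, replicate 2; lines, group means), with 1 panel per gene and a dotted line between the array sets. For Pomt1, Pomt2 and Pomgnt1 the 2 replicates of at least 1 group lie farther apart than the group means do, and for Gmppb both wild-type arrays lie below all 6 others of their set.

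Pomt1, one partner of the mannosyltransferase, had intensities of 79.8 and 125.6 in transgenic mdx, 64.1 and 132.7 in transgenic, 118.4 and 117.5 in mdx, and 74.4 and 107.3 in wild-type muscle. Both transgenic arrays lay outside the range of the other 3 groups, one below and one above. That gap between transgenic replicates was 1.05 on the log2 scale, whereas the highest and lowest group means (mdx and wild type) differed by 0.40. The difference of mdx from wild type was 0.40 ± 0.35 (SE, log2, 95% confidence interval -0.37 to 1.18, adjusted p = 0.605), although the mdx arrays lay above both wild-type ones. Such groups that do not overlap are common with 2 arrays a side: 23.7% of all genes lay wholly higher in mdx. In the injected set Pomt1 was 23.9 and 28.5 after AAV-Galgt2 and 25.3 and 20.8 after PBS, a log2 difference of 0.19 ± 0.35 with overlapping groups (adjusted p = 0.949).

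Pomt2, the other partner, had 72.8 and 73.0 in transgenic mdx, 63.1 and 114.4 in transgenic, 89.1 and 74.2 in mdx, and 61.4 and 92.4 in wild-type muscle on its brighter probe set. Its group means spanned only 0.22 on the log2 scale, against a gap of 0.86 between the transgenic replicates. Both transgenic mdx arrays fell just below both mdx arrays, as did 22.3% of all genes, with a log2 difference of -0.16 ± 0.32 (adjusted p = 0.858). A dimmer Pomt2 probe set gave the opposite sign for that comparison, 0.20, with intensities of 44.4 and 34.4 in transgenic mdx and 29.1 and 39.96 in mdx. After AAV-Galgt2 the brighter probe set read 20.3 and 15.1, against 13.8 and 18.2 after PBS, so these groups overlapped (0.14 ± 0.32, adjusted p = 0.964). In the injected set the Pomt2 signal stood at the 42.3 percentile of all probe sets and Pomt1 at the 49.4 percentile, so neither was bright there.

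Pomgnt1, which extends the O-mannose, was read by a probe set at the 92.0 percentile of signal in the transgenic set. It had 1649 and 1519 in transgenic mdx, 1635 and 1329 in transgenic, 1567 and 2269 in mdx, and 1672 and 1134 in wild-type muscle. One mdx array was the highest and one wild-type array the lowest, and all the other 6 lay between. The log2 difference of mdx from wild type was 0.45 ± 0.25 (95% confidence interval -0.10 to 1.01, adjusted p = 0.364), and the wild-type replicates alone differed by 0.56. After injection of AAV-Galgt2 it had 632.2 and 712.4, and after PBS 678.8 and 685.8, the smallest difference of the 4 genes (log2 difference -0.02 ± 0.25, adjusted p = 0.995). Its order of group means, mdx, transgenic mdx, transgenic and wild type from high to low, was also that of Pomt1, but no neighbouring pair in either order differed beyond the spread of the arrays.

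Gmppb, the GDP-mannose enzyme, was the one gene of the 4 whose group means in the transgenic set spread more widely than its replicates. It had 230.2 and 277.9 in transgenic mdx, 194.5 and 259.0 in transgenic, 281.5 and 194.3 in mdx, and 104.2 and 170.9 in wild-type muscle. Both wild-type arrays lay below all 6 others, while the 3 other groups overlapped one another. Against wild type the log2 difference was 0.92 ± 0.31 in transgenic mdx (95% confidence interval 0.25 to 1.60, unadjusted p = 0.0124, adjusted p = 0.103). It was 0.81 ± 0.31 in mdx (0.13 to 1.49, unadjusted p = 0.0236, adjusted p = 0.161) and 0.75 ± 0.31 in transgenic muscle (0.07 to 1.43, unadjusted p = 0.0332, adjusted p = 0.288). Without transgenic mdx replicate 2, the array with the high 3′ to 5′ ratio, the transgenic mdx difference was 0.79 (adjusted p = 0.410). As folds, the differences on all arrays were 1.90 in transgenic mdx, 1.75 in mdx and 1.68 in transgenic muscle. Of all genes, 27.8% lay wholly above wild type in transgenic mdx, 23.7% in mdx and 20.5% in transgenic muscle. The share that lay above wild type in all 3 groups at once was not counted. None of the 3 Gmppb differences passed the adjusted threshold, and they are not independent because all share the wild-type arrays.

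The wild-type replicates of Gmppb differed by 0.71 on the log2 scale, and which one was kept set the size of each difference. Without wild-type replicate 1 the difference was 0.57 in transgenic mdx, 0.45 in mdx and 0.39 in transgenic muscle. Without wild-type replicate 2 it was 1.28, 1.17 and 1.11 for those groups in the same order. The difference of transgenic mdx from mdx was small for Gmppb (0.11 ± 0.31, adjusted p = 0.901, and -0.023 without transgenic mdx replicate 2), and the interaction of transgene and mdx was -0.64 ± 0.43 (95% confidence interval -1.60 to 0.32, adjusted p = 0.631). In the injected set Gmppb read 42.3 and 38.4 after AAV-Galgt2 and 26.5 and 38.7 after PBS. The groups overlapped by a narrow margin, and the log2 difference was 0.33 ± 0.31 (95% confidence interval -0.35 to 1.01, adjusted p = 0.836).

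**Figure D2:**
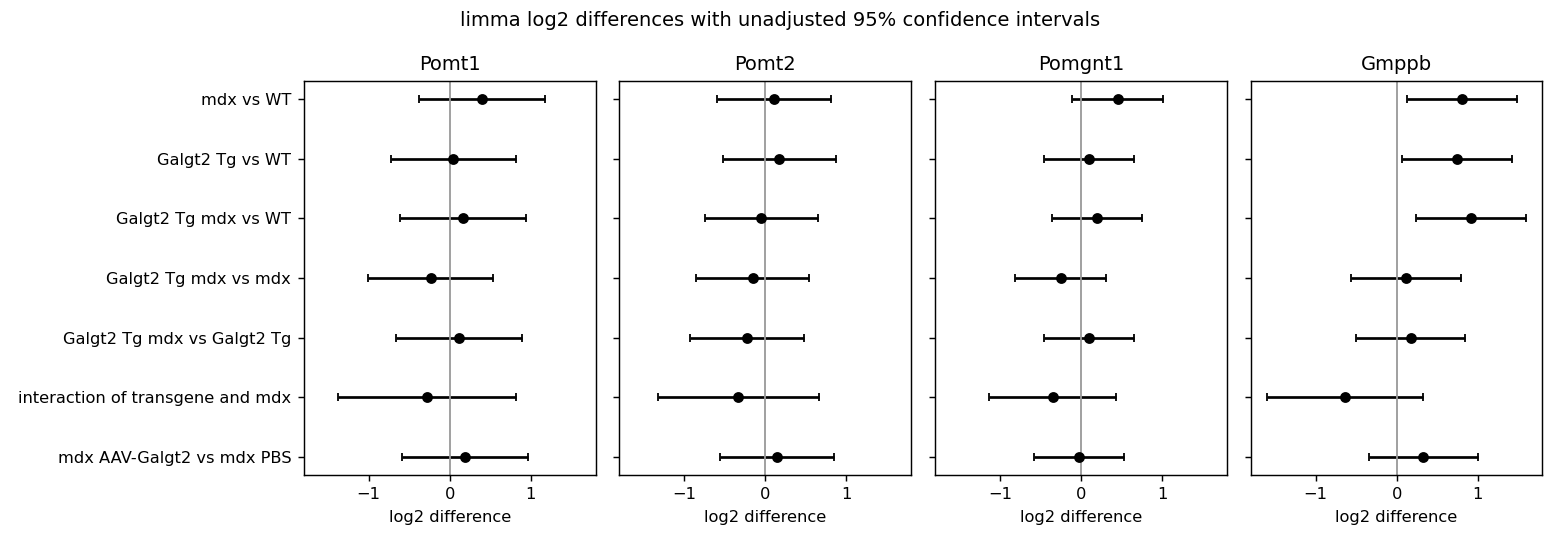
Log2 difference of each of the 4 genes in the 7 muscle comparisons (points) with 95% confidence intervals from limma (bars); the vertical line marks no difference. Only the 3 intervals of Gmppb against wild type leave 0 out, and none of the 28 differences passed the adjusted threshold.

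Summed new fibre, macrophage and cycling markers were lowest of their set in the wild-type arrays, as Gmppb was. The summed intensity of 8 new fibre markers (genes of immature or regenerating fibres such as Myog and Myh3) was 9746 to 12390 in transgenic mdx, 8395 to 11362 in transgenic, 10435 to 10667 in mdx and 2181 to 2900 in wild-type muscle. All 8 were higher in each of the other groups of that set than in wild type, and 6 passed the test in transgenic mdx, 6 in transgenic and 7 in mdx. In the injected set the sum was 4732 to 5182 after AAV-Galgt2 and 1858 to 4230 after PBS, and the lowest array was PBS replicate 1, which was also the lowest for Gmppb. Within each group of the transgenic set, though, the replicate with the higher new fibre sum had the lower Gmppb. In wild type the sums and Gmppb readings were 2900 with 104.2 and 2181 with 170.9. The AAV-Galgt2 replicates went that way too, and the PBS replicates the other way. The sum of 10 macrophage markers was 16178 to 16212 in transgenic mdx, 11141 to 16262 in transgenic, 31346 to 38352 in mdx and 5811 to 6221 in wild-type muscle. The mdx arrays, highest for macrophage markers, read 281.5 and 194.3 for Gmppb, about the range of the transgenic mdx and transgenic arrays. Summed muscle fibre markers (8 genes) were 67322 to 70543 in transgenic mdx, 71020 to 76066 in transgenic, 83111 to 87359 in mdx and 85653 to 89183 in wild-type muscle, so every muscle array carried the defining markers of its tissue. Against wild type all 8 were lower in transgenic mdx (2 called, beside 430 of all 18194 genes called lower) and in transgenic muscle (0 called). In mdx 6 were lower and 2 higher, with 0 called. Cycling markers (6 genes) summed to 1279 to 1780 in transgenic mdx, 1165 to 1658 in transgenic, 1275 to 1774 in mdx and 751 to 841 in wild-type muscle, and PBS replicate 1, at 685, was the lowest array of the injected set. In each of those groups 5 of the 6 were higher than in wild type and 1 was lower. Calls were 1 higher and 1 lower in transgenic mdx (log2 difference -2.82 for the lower) and in transgenic muscle (-2.67). In mdx 2 were called higher and 0 lower. Summed endothelial markers (7 genes) ran the other way, with 2211 to 2339 in transgenic mdx, 2751 to 2830 in transgenic, 4033 to 4204 in mdx and 4438 to 4931 in wild-type muscle. Against wild type all 7 were lower in transgenic mdx, where 2 were called, and in transgenic muscle, where 0 were called. In mdx 4 of the 7 were higher and 3 lower, with 0 called. Of all 18194 genes, 430 were called lower in transgenic mdx against wild type. The summed level of 6 fibroblast markers differed less, at 24976 to 25777 in transgenic mdx, 28978 to 29810 in transgenic, 26954 to 29368 in mdx and 25090 to 26698 in wild-type muscle. The part of these cells in the Gmppb differences was not tested.

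**Figure D3:**
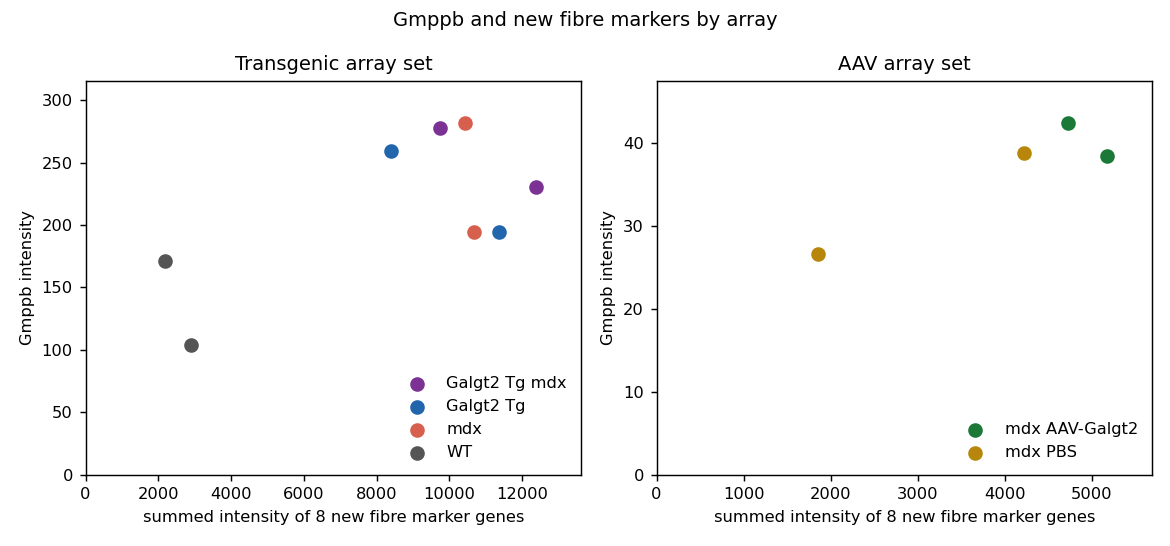
Gmppb intensity (vertical axis) against the summed intensity of 8 new fibre markers (horizontal axis), 1 point per muscle array, with the transgenic and injected sets in separate panels. The 2 wild-type arrays, and PBS replicate 1 in the injected set, are lowest on both axes within their panels. Within each group of the transgenic set, the array with the higher new fibre sum has the lower Gmppb.

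From array to array, Pomt1, Pomt2 and Gmppb were positively correlated with one another, and Pomgnt1 negatively with each of them. With each set's mean subtracted, Pearson's r over the 12 muscle arrays was highest for Pomt2 with Gmppb (0.566), Pomt1 with Pomt2 (0.543) and Pomt1 with Gmppb (0.489). Pomgnt1 had r of -0.535 with Pomt2, -0.146 with Pomt1 and -0.113 with Gmppb. These are descriptions only, since all pairs share the same arrays and the groups themselves differ. Among 9097 genes above the median level, the closest patterns to Gmppb were those of Fbl (r = 0.944), which encodes the nucleolar methyltransferase fibrillarin, Ptms (0.938) and Svep1 (0.929). Pomt1 lay nearest to Nudt22 (0.929), Trmu (0.913), which adds sulphur to mitochondrial tRNA, and Abt1 (0.911). For Pomt2 they were Banf1 (0.922), a chromatin-binding protein, Psmc3 (0.916), a proteasome subunit, and Sar1a (0.903), a GTPase of vesicle export from the endoplasmic reticulum. Those of Pomgnt1 were Eva1b (0.932), Fuca1 (0.924), a lysosomal fucosidase, and AA386476 (0.913). No gene appeared in more than one of these short lists.

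The rest of the pathway gave 4 genes that passed the test, 3 in mdx and 1 in transgenic mdx muscle, each compared with wild type. In mdx 3.75% of all genes rose and 1.69% fell, and in transgenic mdx 4.91% rose. Mannose donor supply was represented by 13 of 13 listed genes, the enzymes and helpers from mannose phosphates to dolichol-linked mannose. In mdx against wild type 11 of the 13 had a positive difference and 1 rose, 0 fell, with a median log2 difference of 0.45 against 0.01 for all genes, of which 9238 of 18194 were positive. Positive differences numbered 7 of 13 in transgenic mdx and 8 of 13 in transgenic muscle against wild type. The medians were 0.28 in transgenic mdx and 0.22 in transgenic muscle, each against wild type, beside 0.01 and -0.05 for all genes. In each of those 3 comparisons 9 of the 13 had groups that did not overlap, against 52% of all genes for transgenic mdx, 47.6% for transgenic and 45.3% for mdx. The 3 comparisons use the same wild-type arrays.

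Mpdu1, needed for the use of dolichol-linked mannose in the endoplasmic reticulum, had 231.6 and 240.9 in mdx and 103.6 and 94.4 in wild-type muscle. It rose by 1.26 ± 0.23 on the log2 scale (adjusted p = 0.0139), with mdx arrays more than 2-fold above wild type. The transgenic mdx arrays had 136.3 and 141.2, so that both lay below the mdx arrays, but the difference of transgenic mdx from mdx did not pass (-0.77 ± 0.23, adjusted p = 0.0791). Its mdx call was lost without wild-type replicate 1 (adjusted p = 0.0753), wild-type replicate 2 (0.107) or mdx replicate 2 (0.0580).

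Gmppa, the partner of Gmppb that in humans restrains GDP-mannose synthesis, had 861.9 and 1036 in transgenic mdx, 939.3 and 651.3 in transgenic, 520.9 and 900.2 in mdx, and 430.9 and 407.3 in wild-type muscle. As with Gmppb, both wild-type arrays were the lowest of their set, a pattern whose share among all genes was not counted. Gmppa rose in transgenic mdx against wild type by 1.17 ± 0.28 (log2, adjusted p = 0.0332), and by 0.65 as the mean of its probe sets (adjusted p = 0.0374). In mdx it was 0.71 ± 0.28 (adjusted p = 0.187) and in transgenic muscle 0.90 ± 0.28 (adjusted p = 0.147) against wild type. The call in transgenic mdx did not hold when the 8 arrays of that set were fitted alone (adjusted p = 0.0768), nor without either wild-type array, either transgenic mdx array (adjusted p = 0.195 without replicate 2) or either AAV-Galgt2 array.

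The other O-mannosyltransferases, Tmtc1 to Tmtc4 and Tmem260, modify cadherins and plexins rather than dystroglycan in human cells. In mdx against wild type 0 of 5 rose and 2 fell, all 5 differences were negative, and their median was -0.77. In transgenic mdx against the same mdx arrays all 5 differences were positive, with a median of 0.51 beside -0.01 for all genes and 0 called. Tmtc1 had 512.4 and 414.8 in mdx and 1007 and 1453 in wild-type muscle (log2 difference -1.39 ± 0.24, adjusted p = 0.0118), with the groups well apart. That call was lost without wild-type replicate 2 (adjusted p = 0.105) or mdx replicate 2 (0.0596). Tmtc3 had 232.3 and 119.5 in mdx and 338.1 and 503.4 in wild type (-1.31 ± 0.33, adjusted p = 0.0469). Its probe sets disagreed: their mean gave -0.30 (adjusted p = 0.502), and the call was lost under 5 of 8 other settings and with 11 of 12 arrays left out in turn. No member of this list passed in the comparisons with transgenic or injected muscle.

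The enzymes that build the rest of the O-mannosyl glycan were measured for 8 of 12 listed genes. None was called in any muscle comparison, and their median log2 differences from wild type were -0.01 in transgenic mdx, -0.22 in transgenic and 0.09 in mdx muscle, beside 0.01, -0.05 and 0.01 for all genes. For transgenic mdx the median was -0.14 against mdx and 0.21 against transgenic muscle, beside -0.01 and 0.07 for all genes, and for AAV-Galgt2 against PBS it was 0.08 beside 0.03. Dag1, which encodes dystroglycan itself, had 3227 and 3556 in transgenic mdx, 3368 and 4287 in transgenic, 3906 and 3867 in mdx, and 3086 and 3187 in wild-type muscle. The mdx difference from wild type was 0.31 ± 0.21 (adjusted p = 0.478). After AAV-Galgt2 Dag1 had 1801 and 1999, and after PBS 915.2 and 1199. Those groups did not overlap, as for 25.3% of all genes in that direction, and the difference of 0.86 ± 0.21 had an unadjusted p of 0.00194 and an adjusted p of 0.361.

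**Figure D4:**
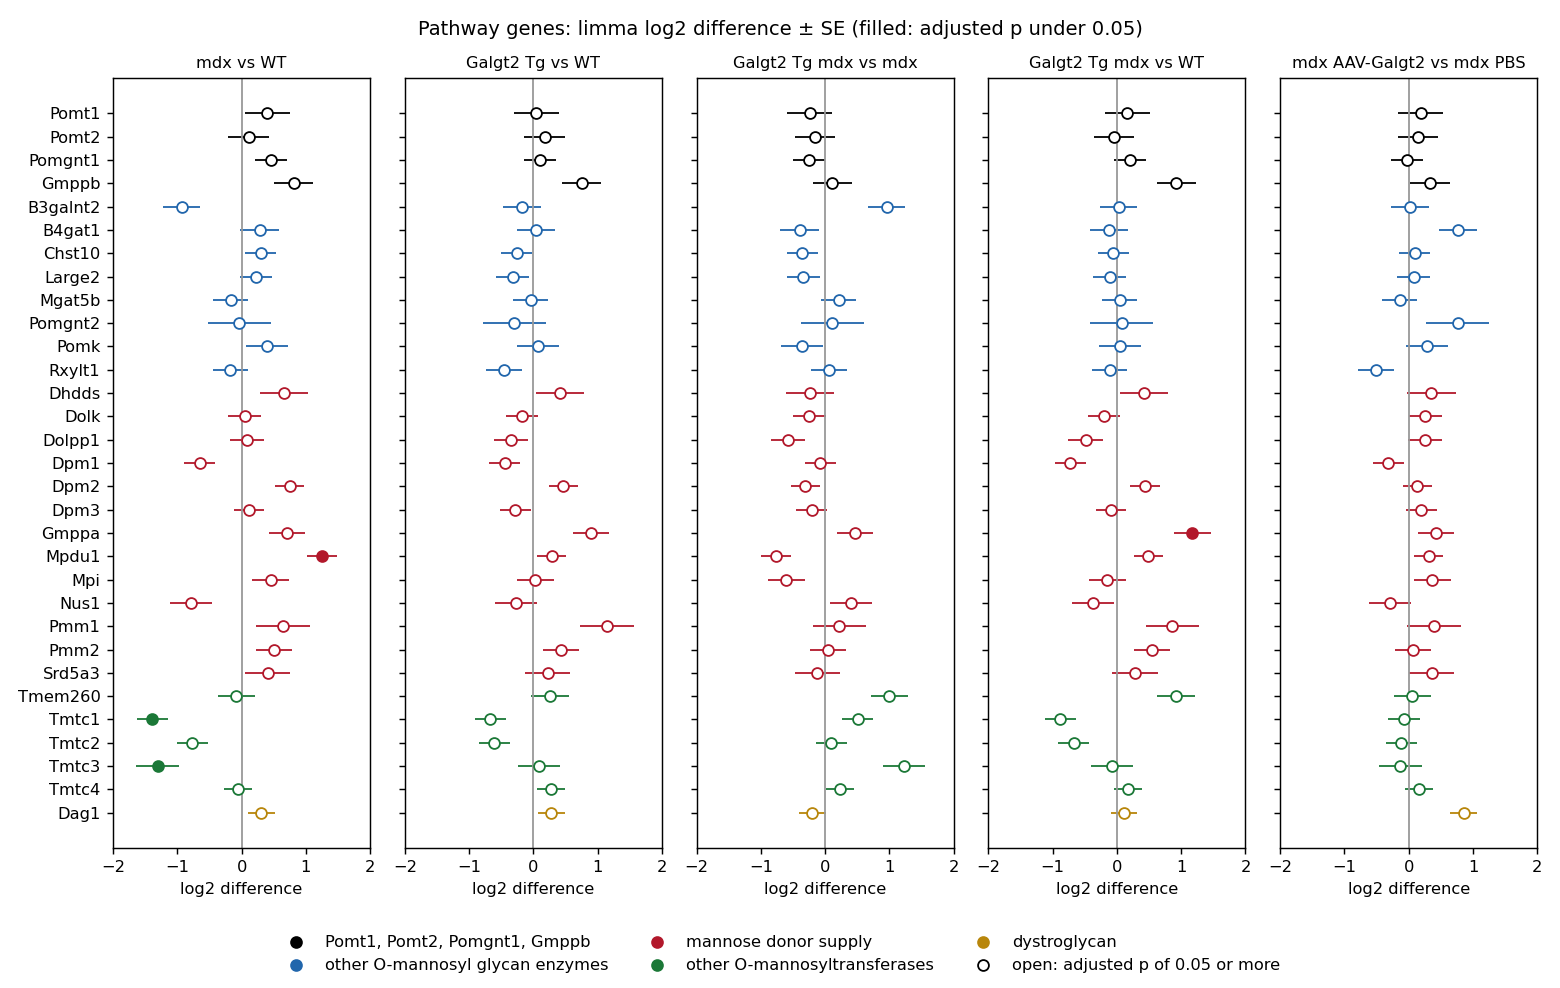
Log2 differences ± SE of each pathway gene (points, coloured by list) in 5 muscle comparisons, with filled points for genes that passed the adjusted threshold. Pomt1, Pomt2, Pomgnt1 and Gmppb have no filled point, and the 4 filled points are Mpdu1, Tmtc1 and Tmtc3 in mdx and Gmppa in transgenic mdx, each against wild type.

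The cell line arrays, 1 per condition, allow values but no test. None of the 4 genes differed by 2-fold in any of 4 comparisons, which is near the background: the share past 2-fold was 5.59% of all genes between Galgt2 myotubes and Galgt2 myoblasts, and 8.36% between the untransfected arrays labelled myotube and myoblast. Between lines it was 9.26% for the arrays labelled myotube and 6.24% for those labelled myoblast. B4galnt2 had log2 levels of 10.82 in Galgt2 myotubes and 9.76 in Galgt2 myoblasts, against 4.81 and 4.58 in the untransfected arrays labelled myotube and myoblast. The untransfected pair went against its labels on stage markers. All 8 muscle fibre markers were lower (median log2 difference -2.22) and all 6 cycling markers higher (0.80) in the array labelled myotube than in the array labelled myoblast. In the Galgt2 pair all 8 fibre markers were higher (1.63) and all 6 cycling markers lower (-1.12) in myotubes than in myoblasts.

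Pomt1 had 140.4 in Galgt2 myotubes and 124.5 in Galgt2 myoblasts, and 120.0 and 115.9 in the untransfected arrays labelled myotube and myoblast, the narrowest range of the 4 genes. Pomgnt1 had 2629 in Galgt2 myotubes and 2317 in Galgt2 myoblasts, beside 2181 in the array labelled myotube and 2692 in that labelled myoblast. The 2 arrays with more fibre marker signal, Galgt2 myotube and labelled myoblast, were thus the higher for Pomgnt1 in their pairs. Pomt2 ran the other way, with 133.7 in Galgt2 myotubes and 158.2 in Galgt2 myoblasts, and 161.0 and 125.5 in the arrays labelled myotube and myoblast, but only on its brighter probe set. The dimmer Pomt2 probe set read 73.3 in Galgt2 myotubes and 110.5 in Galgt2 myoblasts, and 72.0 and 77.1 in the arrays labelled myotube and myoblast, so that it was lower in the array labelled myotube. Gmppb had 132.4 in Galgt2 myotubes and 190.0 in Galgt2 myoblasts, its largest difference at -0.52 on the log2 scale, and 124.4 and 151.4 in the arrays labelled myotube and myoblast. With Galgt2, the myoblast array was 0.33 higher for Gmppb than the array labelled myoblast, and the myotube array 0.09 higher than that labelled myotube. Both differences rest on the untransfected pair, which goes against its labels.

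**Figure D5:**
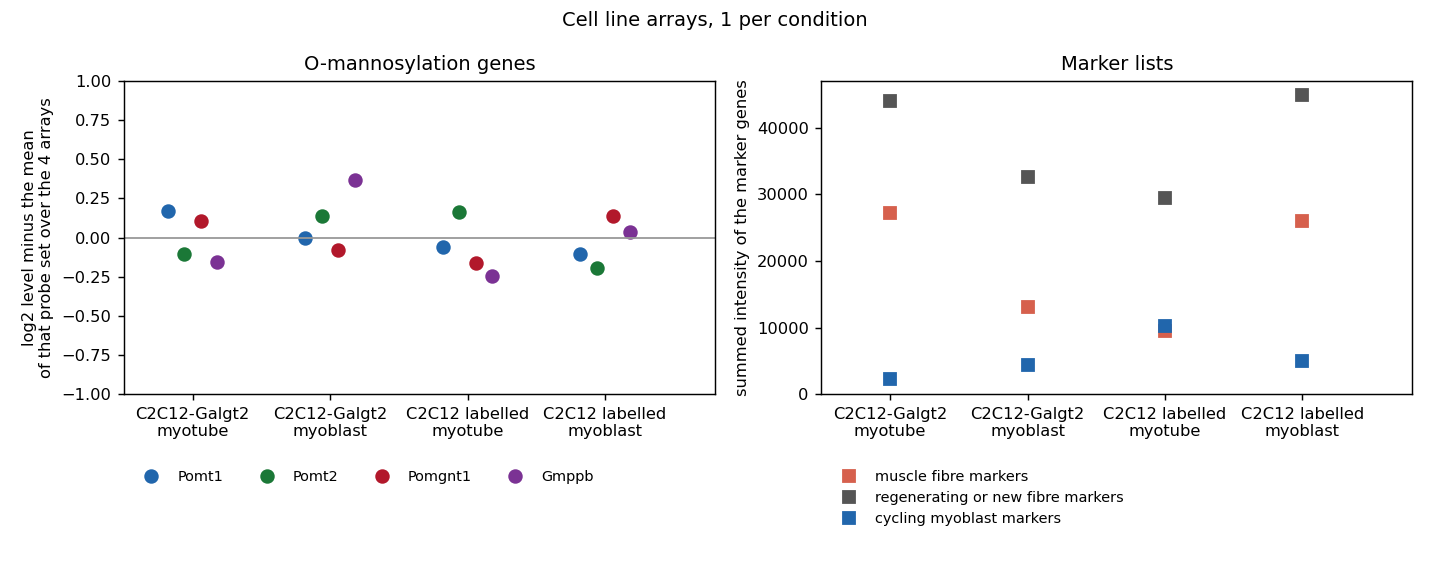
Left, log2 level of each of the 4 genes on each C2C12 array, relative to that probe set's mean over the 4 arrays. Right, summed intensity of marker lists on the same arrays; fibre markers are higher in Galgt2 myotubes than Galgt2 myoblasts, and lower in the array labelled myotube than in that labelled myoblast.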

How the data were processed

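Gene expression was measured on 16 arrays (12 of muscle, 4 of cell lines), grouped by their labels. The deposited values are intensities per probe set on a linear scale. GCOS and RMA made them, per the submitters' processing notes; versions, and whether array sets were normalised together, are not given in the sources used here. Per the labels' protocols, 25 ng of total RNA was amplified for each muscle array. Arrays have no read depth, and their number limits the precision.

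Log2 of the deposited intensity was analysed. Of 45101 probe sets, 34958 have 1 gene symbol in the platform annotation, 932 have several and 9211 have none listed, and only the first kind was used. Each gene was taken from the probe set of highest mean log2 level, separately for muscle and cell lines, leaving 18194 genes. The 12 muscle arrays were fitted with 6 group means in limma 3.58.1 (lmFit and eBayes, R 4.3.3), with 2-sided tests adjusted by Benjamini-Hochberg over all genes of a comparison and a threshold of 0.05. An exact permutation test of 2 arrays against 2 cannot give a p below 0.333. The fit was tested on simulated data in which only 200 genes differed between the 2 groups compared. Of 100 genes raised by 1 on the log2 scale, 18 were called in mdx against wild type and 14 in AAV-Galgt2 against PBS. Of 100 raised by 2, 70 and 78 were called in those comparisons. Among unchanged genes 3 and 4 were called. In the real comparison of mdx with wild type 990 genes were called, which makes its adjusted threshold more lenient. The simulated shares therefore do not give the recovery in that comparison. Cell line arrays were compared by a 2-fold rule.

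The 4 genes and all lists were chosen with earlier results of these data known. Besides the 4 genes, the text names pathway genes called in at least 1 muscle comparison (at most 8 a list), Dag1, the 3 genes of highest correlation with each of the 4, and B4galnt2 and Dmd as checks. Alternatives covered normalisation, probe set choice, an offset, a filter on dim genes, the variance prior, the arrays in the fit, a replicate block and leaving out each array.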

Additional observations from a re-analysis of the deposited data

Results flagged for a closer look

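Pomgnt1 and Pomt2 had differences of opposite sign in the 2 C2C12 lines for the same contrast of myotube with myoblast. For Pomgnt1 the log2 difference was 0.18 in C2C12-Galgt2 and -0.30 in C2C12. For Pomt2 it was -0.24 in C2C12-Galgt2 and 0.36 in C2C12, on the brighter probe set only: the dimmer one gave the same direction in both, -0.59 in C2C12-Galgt2 and -0.10 in C2C12. Each value rests on 1 array per condition, the difference between lines was not tested, and the untransfected pair goes against its stage labels on fibre and cycling markers.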

How the results depend on the processing

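None of Pomt1, Pomt2, Pomgnt1 and Gmppb was called under any alternative or with any array left out, in any of the 7 muscle comparisons. Of 567 alternative values of their differences, 532 kept direction and 35 reversed, all uncalled. Many of the 567 could not change direction, so the share that kept it does not measure stability. Leaving out an array from outside a comparison returns the same difference. So do the replicate block, the fit within the array set, the filter on dim genes and the variance prior. Gmppb against wild type kept its sign throughout, from 0.57 to 1.28 in transgenic mdx, 0.45 to 1.17 in mdx and 0.39 to 1.11 in transgenic muscle with arrays left out, and its smallest adjusted p were 0.0857, 0.140 and 0.236.

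The correlation of deviations from group means between same-numbered replicates was -0.439 to 0.542, above 0 for some pairs of groups and below 0 for others, so the numbers were not taken as pairs. With the replicate number as a block, 582 genes were called in mdx against wild type, 677 in transgenic mdx against mdx, 3 in transgenic mdx against transgenic and 0 in the interaction, where 990, 1107, 10 and 8 were called without it. Mpdu1 and Tmtc1 held under the block, while Tmtc3 (adjusted p = 0.100) and Gmppa (adjusted p = 0.0771) were lost. Fitting 1 array set alone called 365 genes in transgenic and 842 in transgenic mdx, each against wild type, 643 in transgenic mdx against mdx and 3 against transgenic. Leaving out dim genes gave 4 for transgenic mdx against transgenic. The interaction had 15 calls with equal array medians, 13 after quantile normalisation, 5 with an offset of 16, 5 with the mean of probe sets and 20 with an intensity trend. With arrays left out, calls ran from 132 to 1338 in mdx, 184 to 653 in transgenic and 434 to 1575 in transgenic mdx, each against wild type. They ran from 311 to 1290 in transgenic mdx against mdx, 4 to 22 against transgenic, 0 to 142 in the interaction and 0 to 158 in AAV-Galgt2 against PBS (158 without PBS replicate 2).

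Small differences changed sign. After quantile normalisation Pomt2 in mdx against wild type was -0.00024 and Pomt1 in transgenic against wild type -0.028. The dimmer Pomt2 probe set, chosen after seeing the data, gave -0.066 in mdx and 0.13 in transgenic mdx against wild type, 0.20 in transgenic mdx against mdx and 0.011 in the interaction. The mean of both probe sets gave 0.019 against mdx and 0.041 against wild type in transgenic mdx. With arrays left out, Pomt1 ran from -0.48 to 0.57 in transgenic and -0.16 to 0.49 in transgenic mdx against wild type, -0.56 to 0.091 in transgenic mdx against mdx, -0.41 to 0.64 against transgenic and -0.81 to 0.24 in the interaction. Pomt2 ran from -0.18 to 0.40 in mdx, -0.25 to 0.60 in transgenic and -0.34 to 0.25 in transgenic mdx against wild type, -0.29 to -0.026 in transgenic mdx against mdx, -0.65 to 0.21 against transgenic, -0.76 to 0.10 in the interaction and -0.075 to 0.36 in AAV-Galgt2 against PBS. Pomgnt1 ran from -0.18 to 0.38 in transgenic and -0.079 to 0.48 in transgenic mdx against wild type, -0.52 to 0.015 in transgenic mdx against mdx, -0.047 to 0.25 against transgenic and -0.11 to 0.062 in AAV-Galgt2 against PBS. Gmppb ran from -0.15 to 0.38 in transgenic mdx against mdx and -0.034 to 0.38 against transgenic. The cause of these changes was not tested. With 2 arrays a group, 17 of the 28 confidence intervals lie within a 2-fold change, and the others also allow larger ones.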
